A study of Mus musculus with 6 samples.

Results

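The beta-2 integrins of leukocytes, with the genes that act beside them and the gene next to Itgad, were examined in tumour-associated dendritic cells (DCs) that lack XBP1. The group lists 9 genes. They are Itgb2 (the beta chain), Itgal, Itgam, Itgax and Itgad (the alpha chains), Fermt3 and Tln1 (activators), Icam1 (a ligand) and Cox6a2, the gene next to Itgad. The genes were chosen from the levels measured in these same libraries, so that their differences between the genotypes are a description. No p-value is given for a member. Calls of members in the fit over all genes are named, with their count, only as a description. A row of the count table was found for 8 of the 9, out of 23225 rows in all, and all 8 passed the filter on low counts that left 15958 genes to test. Icam1, an adhesion protein that several of these integrins bind, had no row under its symbol and was not analysed here.

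The RNA came from DCs sorted from C57BL/6 mice bearing ID8 tumours, 23 days into growth. ID8 cells derive from mouse ovarian surface epithelium, spread over the peritoneum and cause ascites. The XBP1-KO group (3 libraries) had a conditional deletion of XBP1 limited to cells that express CD11c, and the other group was wild type (WT, 3 libraries). CD11c is the product of Itgax, one of the genes examined. The labels do not name the Cre line or its transgene, do not say whether WT mice carried floxed alleles or Cre, and do not give the sort gate or the animals' age. Gene counts hold no mark of which DNA copy a transcript came from, so that a native gene and any copy on a transgene cannot be told apart. Nothing in the labels says that the 3 samples of a genotype came from separate animals, and p-values therefore measure only the spread between these samples. The libraries are called a, b and c within each genotype, and the letter pairs nothing.

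A beta-2 integrin is a pair of proteins on the surface of a leukocyte, made of the shared beta chain CD18 and an alpha chain. CD18 with CD11a is LFA-1, with CD11b it is Mac-1 (a complement receptor), and with CD11c or CD11d it forms further receptors of myeloid cells. An alpha chain needs CD18 to leave the endoplasmic reticulum (ER), and talin and kindlin-3 bind the tail of CD18 to switch the pair on. XBP1 is a transcription factor of the ER stress response, made after the sensor IRE1 splices Xbp1 mRNA. IRE1 can also cut other mRNAs, and Itgb2 mRNA has been described as a target of such cutting in mouse DCs that lack XBP1.

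Sequences that bear on these genes are shown first. IRE1 is known for cutting at CTGCAG in the loop of a short stem. The longest protein-coding transcript of Itgb2 (Itgb2-201, chromosome 10, 2970 bases, GENCODE on GRCm38) held CTGCAG at 5 places, all of them coding. Each is shown 5′ to 3′ with the motif in capitals, which starts at base 671, 1366, 1618, 2074 and 2168 of the transcript for sites 1 to 5.

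Itgb2 site 1: cggggacttgCTGCAGgccctcaacg
Itgb2 site 2: atgactccttCTGCAGtaatggagca
Itgb2 site 3: agtgtggtatCTGCAGgtgtgagtct
Itgb2 site 4: gtggctcgcaCTGCAGggacaaccac
Itgb2 site 5: tggtatgacgCTGCAGactatccctt

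The motif stood in 86.5% of the 5495 mouse transcripts that are 0.8 to 1.25 times as long as that of Itgb2. It was present 7 times in Itgal, 2 times each in Itgam and Itgad, 1 time in Itgax, 6 times in Fermt3 and 21 times in Tln1, and 0 times in Cox6a2, the shortest transcript at 680 bases. A stricter form, CNGCAGN as a loop of 7 bases closed by at least 4 Watson-Crick pairs, was found 0 times in each of these transcripts and in 2.88% of the transcripts of similar length. Such matches describe letters only.

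Itgam and Itgax lie side by side on chromosome 7 and their levels differed in opposite directions, so the 250 bases before the start of each are shown from RefSeq (GRCm38.p6). They cover chr7:128062390-128062639 for Itgam and chr7:128129300-128129549 for Itgax, both on the plus strand. Capitals mark GAGGAA or its reverse complement TTCCTC, a core of sites for PU.1, which drives myeloid integrin genes.

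Itgam: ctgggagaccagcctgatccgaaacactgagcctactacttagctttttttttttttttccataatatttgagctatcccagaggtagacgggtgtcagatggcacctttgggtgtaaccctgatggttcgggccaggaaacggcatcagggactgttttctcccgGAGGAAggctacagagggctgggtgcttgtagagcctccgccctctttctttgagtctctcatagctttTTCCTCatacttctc
Itgax: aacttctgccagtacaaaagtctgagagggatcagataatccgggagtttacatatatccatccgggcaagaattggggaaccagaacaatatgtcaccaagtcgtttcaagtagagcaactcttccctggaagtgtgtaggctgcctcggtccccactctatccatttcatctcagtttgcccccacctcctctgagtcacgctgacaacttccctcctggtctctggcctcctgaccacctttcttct

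The stretch before Itgam held the motif 1 time on each strand and the stretch before Itgax held it 0 times, while 7639 of 32851 promoters (23.3%) held it on either strand. Among the other members analysed here that had an entry, Tln1 held 1 copy on the reverse strand and Fermt3 held 0. Itgb2, Itgal, Itgad and Cox6a2 had no entry among the promoters, so the stretches before them were not searched for any of these motifs. CCACGT, the core that XBP1 binds (reverse complement ACGTGG), was in 0 of the stretches before Itgam, Itgax, Fermt3 and Tln1, and in 6.91% of all promoters. TGTGGT, the RUNX core (reverse complement ACCACA), stood 2 times before Fermt3 and 0 times before Itgam, Itgax and Tln1, and was in 14% of all promoters.

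The libraries held between 26946349 and 32709100 counts. Levels are CPM (each count relative to its library's total) scaled by TMM factors, log2 fold changes are XBP1-KO over WT, and a gene is called at an adjusted p under 0.05 in edgeR's quasi-likelihood test over all genes. XBP1-KO b and WT b stood apart from the other 4 libraries on the second principal component, which held 27.5% of the variance. Xbp1 itself had 889, 916 and 1331 counts in XBP1-KO and 1903, 1376 and 2300 counts in WT. The groups did not overlap, and the log2 fold change was -0.89 (SE 0.18). With edgeR the adjusted p was 0.0545, above the threshold. Without WT b the adjusted p of Xbp1 was 0.0466, and without any other single library it lay between 0.0755 and 0.301 with edgeR. It passed in other settings, with an adjusted p of 0.00143 with DESeq2, 0.00505 with the likelihood ratio test, 0.00731 with no filter on low counts, 0.0464 with a filter at CPM above 1 in 2 libraries and 0.0496 in the 4 libraries without XBP1-KO b and WT b. With other scaling factors it missed, at 0.0532 to 0.123. A count per gene does not show which part of Xbp1 was deleted.

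The sorted cells had high levels of Cd74, a chaperone of MHC class II, at 69849 ± 11974 CPM in XBP1-KO and 84312 ± 21473 CPM in WT (SD, n = 3 each). Flt3, a growth factor receptor of DCs, was at 32.5 ± 14.4 CPM in XBP1-KO and 35.9 ± 12.6 CPM in WT. Zbtb46, a transcription factor of conventional DCs, was low, at 7.39 ± 0.680 CPM in XBP1-KO and 8.65 ± 0.225 CPM in WT. Of the 12 listed markers of conventional DCs, 2 had a positive and 10 a negative log2 fold change, with a median of -0.26. With edgeR's quasi-likelihood test and with DESeq2 0 were called, and 3 had an unadjusted p under 0.05, all lower. Their part in the lower Itgb2 and Itgam levels was not tested.

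The shared beta chain was lower in XBP1-KO. Itgb2 had 617, 907 and 622 CPM in XBP1-KO (libraries a, b, c) and 1831, 1828 and 1989 CPM in WT (libraries a, b, c). Library b was the highest of XBP1-KO, and even it stayed far below the lowest WT library, so that the groups did not overlap. Itgb2 averaged 715 ± 166 CPM in XBP1-KO and 1883 ± 92.3 CPM in WT (SD, n = 3 each), a log2 fold change of -1.40 (SE 0.16), which is 2.63-fold lower. In the 4 libraries without XBP1-KO b and WT b, the log2 fold change was -1.64. The values rest on 16858 to 26895 counts per XBP1-KO library and 51697 to 59607 counts per WT library. The spread was wider in XBP1-KO, with a coefficient of variation of 23.2%, and 4.90% in WT. In bulk samples, fewer cells that express a gene and less RNA per cell cannot be told apart.

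The 4 alpha chains did not follow the beta chain as a group. Itgam was lower in XBP1-KO, Itgax and Itgad were higher, and Itgal differed by less than its spread. Itgam, which encodes CD11b, the alpha chain of Mac-1, had 239.9, 317 and 238 CPM in XBP1-KO and 477, 584 and 426 CPM in WT. Library b was the highest of each genotype, and the groups did not overlap. Itgam averaged 265 ± 44.9 CPM in XBP1-KO and 496 ± 80.9 CPM in WT, with a log2 fold change of -0.90 (SE 0.16).

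Itgax, which encodes CD11c, was higher in XBP1-KO. It had 143, 161 and 133 CPM in XBP1-KO and 109, 94.2 and 106 CPM in WT. All 3 XBP1-KO libraries lay above all 3 WT libraries, and the spread was small in both genotypes, with coefficients of variation of 9.76% in XBP1-KO and 7.69% in WT. Itgax averaged 146 ± 14.2 CPM in XBP1-KO and 103 ± 7.94 CPM in WT, with a log2 fold change of 0.50 (SE 0.13). In the 4 libraries without XBP1-KO b and WT b it was 0.34.

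Itgad, which encodes CD11d, was the scarcest member per kilobase of transcript and differed most. It had 111, 191 and 178 counts in XBP1-KO (libraries a, b, c) and 11, 13 and 21 counts in WT (libraries a, b, c). The exact Poisson 95% interval of the lowest XBP1-KO count was 91.3 to 134, and that of the highest WT count was 13 to 32.1, where both cover counting error only and leave out the spread between samples. As levels, Itgad had 4.06, 6.44 and 5.40 CPM in XBP1-KO and 0.388, 0.460 and 0.701 CPM in WT. It averaged 5.30 ± 1.19 CPM in XBP1-KO and 0.516 ± 0.164 CPM in WT, with a log2 fold change of 3.35 (SE 0.38), which is 10.2-fold higher.

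Itgal, which encodes CD11a of LFA-1, had 14.3, 22.4 and 21.5 CPM in XBP1-KO and 21.8, 29.9 and 19.7 CPM in WT. XBP1-KO libraries b and c lay above the lowest WT library, so the groups overlapped. The log2 fold change was -0.29 (SE 0.22).

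Cox6a2 encodes a subunit of cytochrome c oxidase known from heart and skeletal muscle, and in the mouse it is also expressed in plasmacytoid DCs. It had 10.7, 12.7 and 26.7 CPM in XBP1-KO and 5.05, 1.56 and 2.57 CPM in WT. Library c was highest by far among XBP1-KO and library a was highest among WT, and the groups did not overlap. Cox6a2 averaged 16.7 ± 8.69 CPM in XBP1-KO and 3.06 ± 1.80 CPM in WT, with a log2 fold change of 2.45 (SE 0.49), which is 5.46-fold higher. Its spread was the widest of the members, with coefficients of variation of 52.1% in XBP1-KO and 58.7% in WT. The log2 fold change was 1.91 to 3.01 over the 14 alternative settings.

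Both activators were somewhat lower in XBP1-KO. Fermt3, which encodes kindlin-3, had 413, 442 and 354 CPM in XBP1-KO and 492, 523 and 540.4 CPM in WT, with a log2 fold change of -0.36 (SE 0.13). Tln1, which encodes talin, had 237, 293 and 282 CPM in XBP1-KO and 334, 383 and 337 CPM in WT, with a log2 fold change of -0.38 (SE 0.13). In both genes every XBP1-KO library lay below every WT library, by a margin that was small beside that of Itgb2.

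Of the 8 members tested, Itgb2 and Itgam were called lower, and Itgad was called higher. The call of Itgam ended when any single library other than XBP1-KO b was left out. Among all genes tested, 0.288% were called lower (46 genes) and 0.157% were called higher (25 genes). The libraries did not overlap for 7 of the 8 members, 3 above and 4 below WT, and for 19.2% of all genes tested. The median log2 fold change was -0.33 over the members and 0.06 over all genes tested. Because the members were chosen on this contrast, nothing is read from these calls and counts.

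**Figure D1:**
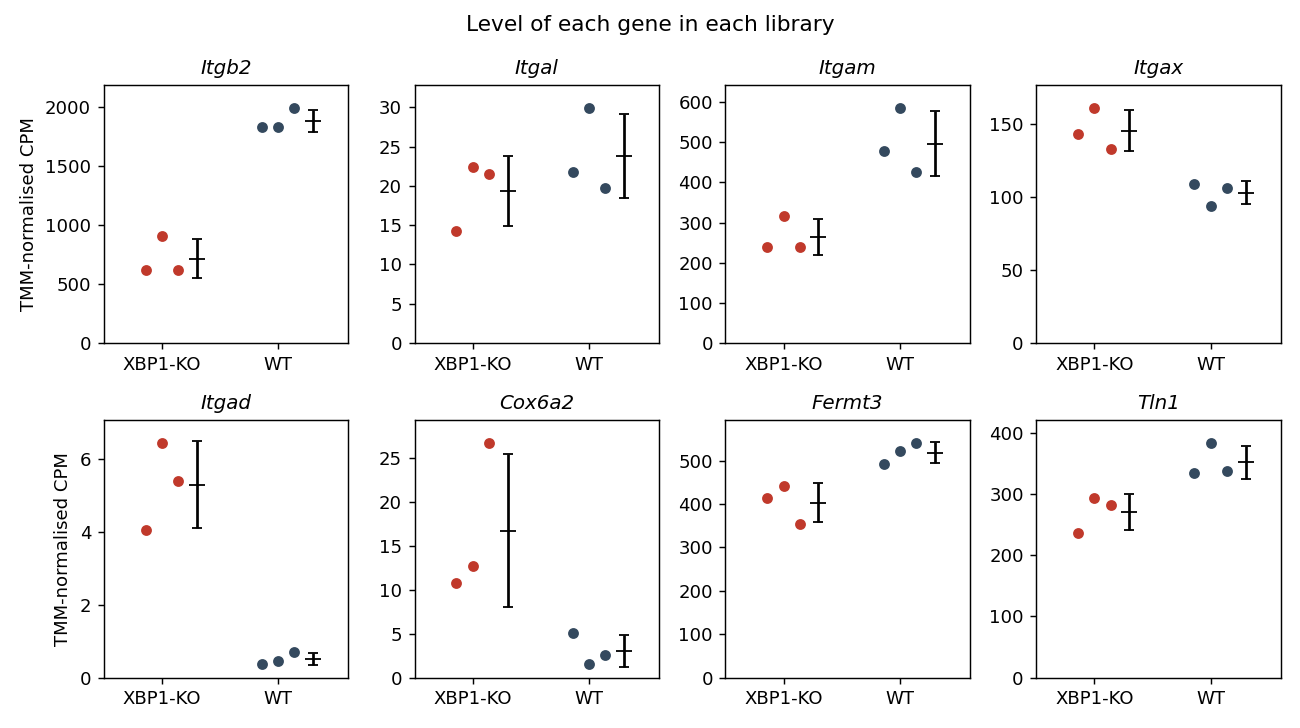
The level of each of the 8 genes is plotted in TMM-normalised CPM for each library, with XBP1-KO (red) left of WT (blue) and bars for the mean ± SD of 3 libraries. Itgb2 and Itgam lie lower in XBP1-KO, Itgax, Itgad and Cox6a2 lie higher, and only Itgal overlaps between the genotypes.

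Genes were set beside each other as CPM per kilobase of their longest protein-coding transcript. On that scale Itgb2 had the highest level of the members in both genotypes, at 241 ± 55.9 in XBP1-KO and 634 ± 31.1 in WT. Fermt3 came next, at 156 ± 17.3 in XBP1-KO and 200.4 ± 9.54 in WT, and Itgam after it, at 56.5 ± 9.58 in XBP1-KO and 106 ± 17.3 in WT. Below these 3 the order depended on the genotype. In XBP1-KO, Itgax (36.0 ± 3.51), Tln1 (32.2 ± 3.54) and Cox6a2 (24.5 ± 12.8) did not differ beyond their spread, and Itgal (3.71 ± 0.854) and Itgad (1.29 ± 0.291) followed. In WT, Tln1 (41.9 ± 3.27) stood above Itgax (25.5 ± 1.96), Itgal (4.56 ± 1.03) and Cox6a2 (4.50 ± 2.64) did not differ beyond their spread, and Itgad was last at 0.126 ± 0.0399.

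The balance between the chains differed with the genotype. The alpha chains summed to 97.6 ± 13.6 CPM per kilobase in XBP1-KO and 136 ± 16.6 CPM per kilobase in WT. The beta chain stood over that sum by a ratio of 2.30, 2.70 and 2.35 in XBP1-KO (libraries a, b, c), and of 4.63, 4.0 and 5.53 in WT (libraries a, b, c). Transcripts of the shared chain thus exceeded those of its partners in all 6 libraries, by less in every XBP1-KO library than in any WT library. The ratio averaged 2.45 ± 0.216 in XBP1-KO and 4.72 ± 0.769 in WT. The counts do not show how much protein of each chain is made.

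Which alpha chain led was the same in both genotypes, and its lead differed. Itgam made up 57.8 ± 1.63% of the alpha chain transcripts in XBP1-KO and 77.6 ± 3.12% in WT, and Itgax made up 37.1 ± 2.02% in XBP1-KO and 19.0 ± 3.43% in WT. Itgal took 3.81 ± 0.797% in XBP1-KO and 3.32 ± 0.342% in WT, shares that overlapped. Itgad took 1.32 ± 0.199% in XBP1-KO and 0.0949 ± 0.0399% in WT, so that even at 10.2 times its WT level it was a small part of the alpha chains. The ratio of Itgax to Itgam counts was 0.555 ± 0.0441 in XBP1-KO and 0.213 ± 0.0460 in WT.

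**Figure D2:**
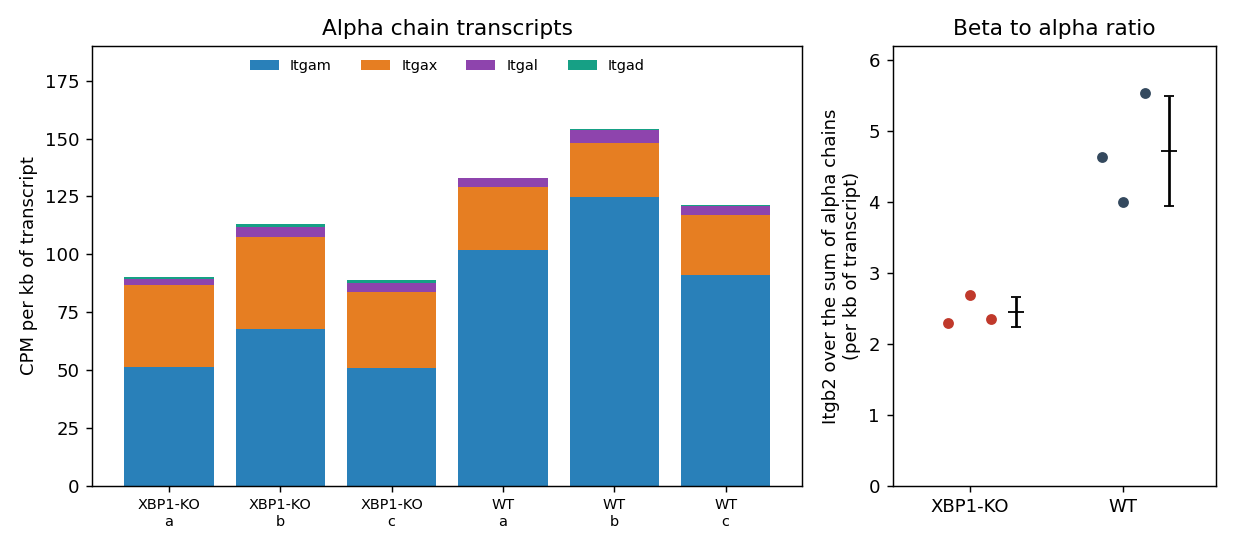
On the left, CPM per kilobase of transcript of the 4 alpha chains is stacked for each library, XBP1-KO left of WT; on the right, Itgb2 is divided by that sum, with bars for the mean ± SD of 3 libraries. The Itgax segment is taller and the Itgam segment shorter in XBP1-KO, and the ratio lies between 2.30 and 2.70 in XBP1-KO and between 4.0 and 5.53 in WT.

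Itgax and Itgad are near copies in part of their length, and this bears on how far their counts are separate. Their longest coding transcripts shared 8 identical runs of at least 30 bases, all coding, with 752 bases in all. Of the 4017 stretches of 30 bases in the Itgax transcript, 520 (12.9%) were also in Itgad, and 0 were in Itgam or Itgal. The longest run, of 188 bases, is shown 5′ to 3′ as it stands in both transcripts (GENCODE on GRCm38, chromosome 7, plus strand).

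Itgax and Itgad: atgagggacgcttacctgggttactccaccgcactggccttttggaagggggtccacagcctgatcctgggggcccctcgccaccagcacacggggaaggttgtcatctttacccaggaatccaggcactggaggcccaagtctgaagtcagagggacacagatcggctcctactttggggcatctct

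A read that lies within such a run can come from either gene, and the assignment of such reads is not given in the sources used here. Thus the Itgad level is uncertain by an unknown share of Itgax reads. The measured Itgad counts were 2.84%, 4.0% and 4.06% of the Itgax counts in XBP1-KO (libraries a, b, c), and 0.355%, 0.488% and 0.661% in WT (libraries a, b, c). The percent averaged 3.63 ± 0.690% in XBP1-KO and 0.501 ± 0.153% in WT. The part of shared reads in the Itgad level was not tested.

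**Figure D3:**
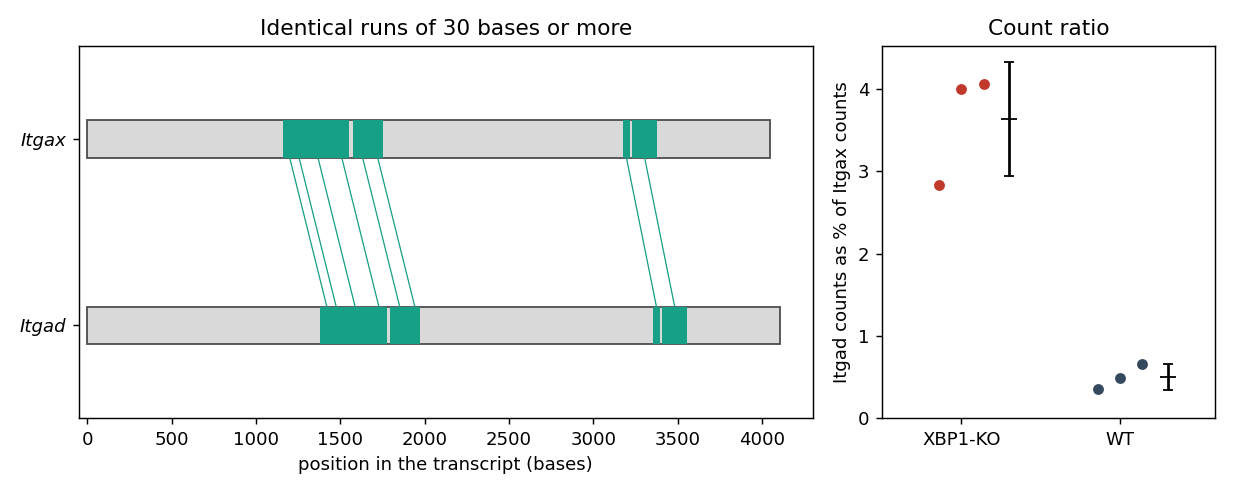
On the left, the Itgax and Itgad transcripts are drawn to scale in bases, with their identical runs of 30 bases or more in green and joined by lines; on the right, Itgad counts are given as a percent of Itgax counts per library, XBP1-KO left of WT, with bars for the mean ± SD of 3 libraries. The runs lie in 2 stretches of each transcript, and the percent is 2.84 to 4.06 in XBP1-KO and 0.355 to 0.661 in WT.

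Cox6a2 lies beside Itgad on chromosome 7, on the opposite strand, and the RefSeq annotation of both genes overlaps by 70 bases (GRCm38). Whether reads were counted by strand is not given in the sources used here, so that reads in those bases cannot be given to a single gene. The ratio of Cox6a2 to Itgad counts was 2.64, 1.97 and 4.94 in XBP1-KO libraries and 13, 3.38 and 3.67 in WT libraries. The 2 genes therefore did not keep a fixed ratio, and in every library Cox6a2 had more counts than Itgad.

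The genes on either side were measured to see how far along the chromosome such differences reached. Of 9 protein-coding genes reported here, 4 before and 5 after the block that runs over Itgam, Itgax, Itgad and Cox6a2, 8 had a row and 5 were tested. None of the 5 was called by edgeR's quasi-likelihood test or DESeq2, 0 had an unadjusted p under 0.05, and each overlapped between the genotypes. All 5 had a positive log2 fold change, with a median of 0.35, while the median of all genes tested was 0.06. Pycard, the adaptor ASC of the inflammasome, had 249 ± 25.1 CPM in XBP1-KO and 221 ± 17.2 CPM in WT (0.17, adjusted p = 0.608 in edgeR's quasi-likelihood test). The gene next to Cox6a2 on the far side, 9130023H24Rik, had 17.2 ± 3.04 CPM in XBP1-KO and 16.4 ± 3.42 CPM in WT, with a log2 fold change of 0.07 that was -0.12 in the 4 libraries without XBP1-KO b and WT b. Prss36 (0.48), Armc5 (0.46) and Tgfb1i1 (0.35) had means under 5 CPM in both genotypes, Tgfb1i1 was at -0.15 without WT c and at -0.18 without XBP1-KO c, and Trim72, Prss8 and Slc5a2 were too low to test.

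**Figure D4:**
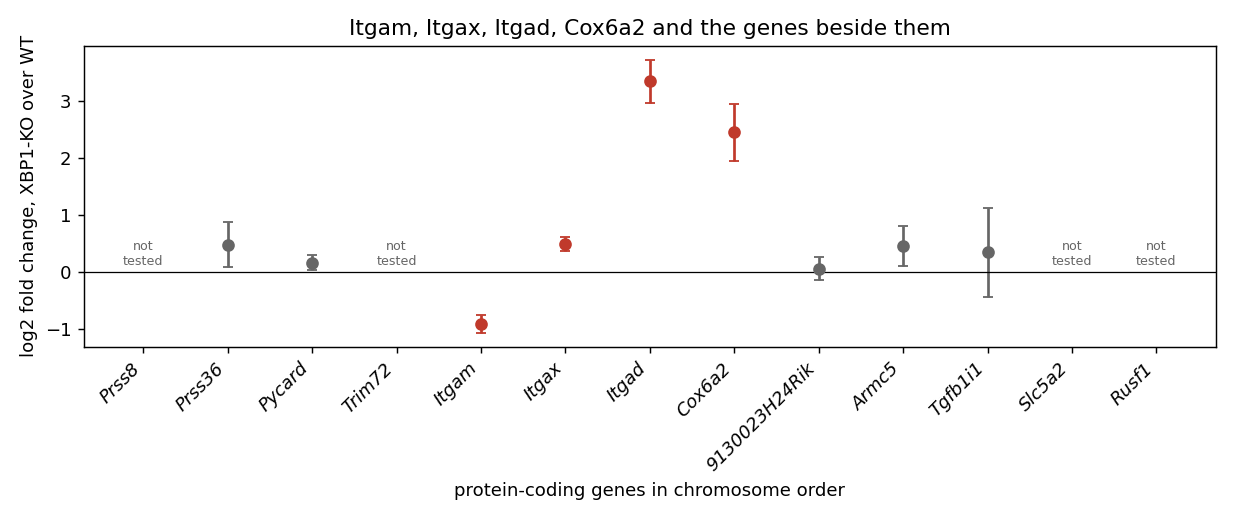
The log2 fold change, XBP1-KO over WT, is plotted with its SE for Itgam, Itgax, Itgad and Cox6a2 (red) and for 5 tested genes beside them (grey). The 9 protein-coding neighbours stand in chromosome order, and those without a test are marked as not tested. Itgad and Cox6a2 lie at 3.35 and 2.45, Itgam lies at -0.90, and the 5 tested neighbours lie between 0.07 and 0.48.

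On chromosome 10, the genes next to Itgb2 were examined in the same way. Pttg1ip, which lies beside it, had 232 ± 23.5 CPM in XBP1-KO and 298 ± 50.6 CPM in WT, with a log2 fold change of -0.36 (adjusted p = 0.304 with edgeR). Sumo3, the next gene, had 99.2 ± 11.4 CPM in XBP1-KO and 97.0 ± 30.2 CPM in WT. 1810008A18Rik, on the other side of Itgb2, had 5.09 ± 0.388 CPM in XBP1-KO and 4.16 ± 0.493 CPM in WT. None of these 3 was called by edgeR's quasi-likelihood test or DESeq2, and 1 of them, Pttg1ip, had an unadjusted p under 0.05.

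Proteins that switch on beta-2 integrins or tie them to the cytoskeleton formed a list of 28 genes, all tested. Of these, 10 had a positive and 18 a negative log2 fold change, with a median of -0.09, and 0 were called by edgeR's quasi-likelihood test. At an unadjusted p under 0.05 there were 1 higher and 6 lower, and DESeq2 called 3. Flna, filamin A, which binds integrin tails and actin, had 424 ± 22.6 CPM in XBP1-KO and 583 ± 60.0 CPM in WT (-0.46, adjusted p = 0.131 with edgeR). Skap2, an adaptor of integrin signalling in myeloid cells, had 378 ± 38.2 CPM in XBP1-KO and 448 ± 9.03 CPM in WT (-0.24, adjusted p = 0.440 with edgeR). Skap1, its relative in T cells, had 17.0 ± 4.45 CPM in XBP1-KO and 7.69 ± 2.95 CPM in WT (1.15, adjusted p = 0.101 with edgeR).

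Other ligands of the beta-2 integrins were listed with 12 genes, of which 8 were tested. With edgeR's quasi-likelihood test 0 were called, DESeq2 called 1, and 3 had an unadjusted p under 0.05, all higher. Icam2, an adhesion protein that LFA-1 binds and that peritoneal macrophages also express, had 78.5 ± 2.84 CPM in XBP1-KO and 51.7 ± 4.85 CPM in WT (0.60, adjusted p = 0.0677 with edgeR). F11r, the junction protein JAM-A, had 114 ± 19.5 CPM in XBP1-KO and 117 ± 11.8 CPM in WT. Besides Icam2, the genes with an unadjusted p under 0.05 were Fcer2a (0.79) and Thy1 (1.59). Icam2, Fcer2a and Vcam1 of this list also stand in the lists of peritoneal macrophages, B cells and red pulp macrophages, in that order.

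Transcription factors known to drive beta-2 integrin genes were listed with 10 genes, all tested. With edgeR's quasi-likelihood test 0 were called, DESeq2 called 1, while an unadjusted p under 0.05 was found for 1 higher and 2 lower genes. Gabpa, the DNA-binding part of GABP, had 25.5 ± 1.09 CPM in XBP1-KO and 38.2 ± 4.27 CPM in WT (-0.58, adjusted p = 0.106 with edgeR). Irf8, a factor of DC development, had 79.0 ± 31.0 CPM in XBP1-KO and 89.8 ± 38.4 CPM in WT, and Sp3 had 72.4 ± 6.17 CPM in XBP1-KO and 67.2 ± 6.50 CPM in WT. PU.1 (Sfpi1 in the table, and added once its values were known) had 11.7 ± 0.403 CPM in XBP1-KO and 11.8 ± 1.23 CPM in WT (-0.02, SE 0.19).

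The mRNAs other than Itgb2 that are described as targets of cutting by IRE1 were listed with 9 genes, all tested. Of these, 3 had a positive and 6 a negative log2 fold change, with a median of -0.08, and 0 were called by edgeR's quasi-likelihood test or DESeq2. Scara3 (0.42, SE 1.17) and Pdgfrb (-0.25, SE 0.90) were scarce, at 0.410 and 0.353 CPM in XBP1-KO and 0.304 and 0.414 CPM in WT. The other positive values were 0.08 for Col6a1 (SE 0.39) and 0.42 for Pmp22 (SE 0.35). Tapbp, tapasin of the MHC class I loading complex, was the single gene with an unadjusted p under 0.05. It had 217 ± 25.7 CPM in XBP1-KO and 289 ± 7.81 CPM in WT (-0.41, adjusted p = 0.174 with edgeR). Sparc, a matrix protein, had 158 ± 63.3 CPM in XBP1-KO and 159 ± 24.4 CPM in WT. Itgb2, at -1.40, lay below each of the 9, but it was chosen on this same contrast, so nothing is read from its rank.

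Known XBP1 targets of the secretory pathway, the route by which integrin chains reach the surface, were listed with 11 genes. All 11 had a negative log2 fold change, with a median of -0.67, and 5 were called lower by edgeR's quasi-likelihood test. Among all 15958 genes tested, 6999 had a negative log2 fold change and 0.288% were called lower. The list was chosen with earlier results of these data known, so its counts are a description. Stt3a, which adds glycans to new proteins, fell to 180 ± 19.3 CPM in XBP1-KO, against 353 ± 36.2 CPM in WT (-0.97, adjusted p = 0.0124 with edgeR). Hyou1, an ER chaperone, fell to 25.3 ± 6.57 CPM in XBP1-KO, against 62.8 ± 7.65 CPM in WT (-1.31, adjusted p = 0.0142 with edgeR). Sec61a1, the pore through which new chains enter the ER, fell to 205 ± 27.8 CPM in XBP1-KO, against 419 ± 64.5 CPM in WT (-1.03, adjusted p = 0.0142 with edgeR). The disulfide isomerase Pdia4 fell by 0.75 on the log2 scale (adjusted p = 0.0466 with edgeR) and the coat protein Sec24d, added once its values were known, by 1.02 (adjusted p = 0.0459 with edgeR). Pdia6, another disulfide isomerase, had 499.6 ± 67.0 CPM in XBP1-KO and 774 ± 70.9 CPM in WT (-0.63, adjusted p = 0.0696 with edgeR). These calls depended on single libraries. Over the 5 lists of related genes and the neighbours, the lists of cell type markers apart, the number called was 3 when WT a or WT b was left out, 0 when either WT c or library a or c of XBP1-KO was, and 6 when XBP1-KO b was. Without WT c the adjusted p with edgeR was 0.101 for Stt3a, 0.116 for Hyou1 and 0.116 for Sec61a1.

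**Figure D5:**
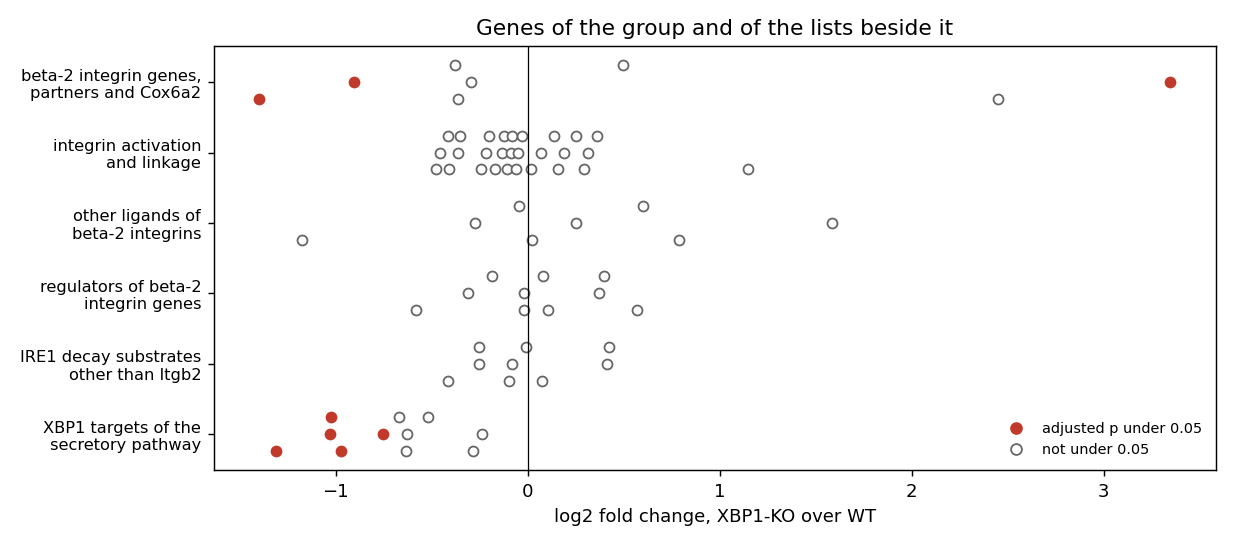
Each circle is a gene at its log2 fold change, XBP1-KO over WT, in rows for the integrin group and for 5 lists of related genes; filled circles have an adjusted p under 0.05. The circles of the XBP1 targets all lie below 0 with 5 filled, 0 are filled in the other 4 lists, and the integrin group spreads from -1.40 to 3.35.

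Some transcripts of other cell types differed between the genotypes, and their part in the integrin levels was not tested. Markers of T and NK cells, which express Itgal and Itgb2 too, summed to 225 to 345 CPM in XBP1-KO and 146 to 156 CPM in WT. All 11 tested had a positive log2 fold change, and Nkg7, Cd3e and Ncr1 rose. Klrb1c and Cd2, with the highest mean levels of the list over both genotypes, were not called. Klrb1c had 59.5 ± 9.40 CPM in XBP1-KO and 53.9 ± 8.15 CPM in WT (0.14). Cd2 had 54.1 ± 11.5 CPM in XBP1-KO and 40.7 ± 17.3 CPM in WT (0.41). Nkg7, of cytotoxic granules, had 69.4 ± 20.6 CPM in XBP1-KO and 20.3 ± 4.92 CPM in WT (1.77, adjusted p = 0.0200 with edgeR). Cd3e, of the T cell receptor complex, had 16.2 ± 3.56 CPM in XBP1-KO and 5.40 ± 1.61 CPM in WT (1.59, adjusted p = 0.0227 with edgeR). Without WT c the adjusted p was 0.0958 for Nkg7 and 0.170 for Cd3e, without WT a it was 0.0569 for both, and without XBP1-KO a it was 0.0654 for Nkg7 and 0.0606 for Cd3e. The call of Ncr1 ended when any single library other than XBP1-KO c was left out.

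Markers of resident peritoneal macrophages, which carry CD11b, summed to 1651 to 2456 CPM in XBP1-KO and 1068 to 1374 CPM in WT. Of these, 9 of 10 had a positive log2 fold change and 1, the lipoxygenase Alox15, rose, with 650.5 ± 141 CPM in XBP1-KO and 303 ± 23.7 CPM in WT (1.10, adjusted p = 0.0142 with edgeR). Emr1 had 489.9 ± 117 CPM in XBP1-KO and 493 ± 62.7 CPM in WT (-0.01), and was not called. At an unadjusted p under 0.05, 5 of these macrophage markers were higher, DESeq2 called 5 and the likelihood ratio test 4. The adjusted p of Alox15 was 0.0512 without WT b and 0.121 without WT c. Markers of monocytes, which carry CD11b as well, summed to 2309 to 3221 CPM in XBP1-KO and 3513 to 4022 CPM in WT, ranges that did not overlap. The list as a whole did not go that way, since 4 of its 6 genes had a positive log2 fold change, with a median of 0.17, and 0 were called by edgeR's quasi-likelihood test (DESeq2 called 1). At an unadjusted p under 0.05, 1 monocyte marker was higher and 1 lower. Most of the sum was Ccr2, a chemokine receptor, with 1721 ± 129 CPM in XBP1-KO and 2693 ± 412 CPM in WT (-0.65, adjusted p = 0.0785 with edgeR). Neutrophil markers summed to 353 to 483 CPM in XBP1-KO and 118 to 276 CPM in WT, with 0 of 9 called, and B cell markers to 356 to 514 CPM in XBP1-KO and 141 to 329 CPM in WT, with 0 of 8 called. At an unadjusted p under 0.05, 1 neutrophil and 5 B cell markers were higher, and DESeq2 called 0 and 2 of them. Red pulp macrophage markers summed to 153 to 446 CPM in XBP1-KO and 167 to 329 CPM in WT, and markers of ID8 and mesothelial epithelium to 107 to 188 CPM in XBP1-KO and 127 to 170 CPM in WT.

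For Cox6a2, markers of muscle and of plasmacytoid DCs were read beside it. Striated muscle markers summed to 9.64 to 16.9 CPM in XBP1-KO and 8.03 to 14.0 CPM in WT. Most of that sum was Cox7a1, a cytochrome c oxidase subunit, with 10.6 ± 3.76 CPM in XBP1-KO and 9.21 ± 2.53 CPM in WT. The defining genes Acta1 and Ckm had means under 1 CPM in both genotypes. Tcap had 2 counts in WT a, Cox8b had 1 count in XBP1-KO a, and both had 0 counts in every other library. Plasmacytoid DC markers summed to 182 to 272 CPM in XBP1-KO and 158 to 230.1 CPM in WT. Siglech, which defines these cells, had 22.5 ± 12.8 CPM in XBP1-KO and 30.8 ± 7.62 CPM in WT. Of the muscle and plasmacytoid DC markers, 0 of 4 and 0 of 8 were called by edgeR's quasi-likelihood test or DESeq2, and 0 had an unadjusted p under 0.05. Mast cell markers summed to 136 to 188 CPM in XBP1-KO and 113 to 177 CPM in WT, and 3 of 6 rose, Cma1, Cpa3 and Tpsb2. Of the 6, 5 had a positive log2 fold change and 1, Kit, a negative one (-0.68, adjusted p = 0.210 with edgeR). Kit was a large part of the sum, with 56.9 to 68.5 CPM in XBP1-KO and 70.4 to 140 CPM in WT. Cma1, mast cell chymase, had 34.4 ± 8.28 CPM in XBP1-KO and 14.5 ± 1.05 CPM in WT (1.25, adjusted p = 0.0192 with edgeR). Its adjusted p was 0.0533 to 0.116 when either WT b, WT c or library a or c of XBP1-KO was left out, and the calls of Cpa3 and Tpsb2 ended when any single library other than XBP1-KO b was left out. The part of these cells in the Cox6a2 level was not tested.

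The genes whose levels over the 6 libraries were most like those of a member were found among 9700 genes, as a description. The points share their libraries, and genes that differ between the genotypes are alike by that alone. For Itgb2 they were Ndrg3 (Pearson r = 0.996), Arf1 (0.995) and the mannose receptor Mrc1 (0.992). For Itgad they were Vamp5 (0.990), Gimap7 (0.981) and the interferon receptor chain Ifnar2 (0.979). For Cox6a2 they were Tpsb2, a mast cell tryptase (0.989), Gadd45a (0.983) and Ets1 (0.982). Tpsb2 had 22.9, 25.4 and 37.2 CPM in XBP1-KO (libraries a, b, c) and 15.6, 12.2 and 12.4 CPM in WT (libraries a, b, c). Like Cox6a2, Tpsb2 was highest in XBP1-KO c among all libraries and in WT a among WT, and so were Gadd45a and Ets1. These genes were picked for that likeness, so the shared pattern follows from the choice and nothing is read from it.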

How the data were processed

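RNA was sequenced from 3 XBP1-KO and 3 WT samples. The authors deposited raw whole-number counts, 1 row per gene symbol. RSEM, edgeR and the build mm9 were used, per the submitters' processing notes, and no version, role, strand setting or annotation is given in the sources used here. A second deposited table, of normalized values, was not used. Columns give the genotype with no replicate number. No column was left out.

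Counts were tested in R 4.3.3 with edgeR 4.0.16 on all rows that filterByExpr kept (15958 of 23225), with TMM factors and a two-sided quasi-likelihood F test (robust). P-values were adjusted by the Benjamini-Hochberg method over all of these genes, with 0.05 for a call, and SE is the log2 fold change over the square root of F. The common biological coefficient of variation was 0.25. The fit was tested on simulated data. Many of the smaller changes put into those data were not called, so a gene that is not called here may still differ. A first check on the recovery of the smaller changes was missed. It was replaced by checks of direction, size, recovery of larger changes and false calls.

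Transcript lengths and transcript sequences came from GENCODE, and promoters and gene order from RefSeq, both on GRCm38, which is not the build of the counts. They were therefore used by gene name only. Sequence words of 30 bases were compared between transcripts.

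The members and the gene lists were chosen with earlier results of these data known. Genes named were Xbp1, the members, their neighbours, up to 3 called genes (otherwise the gene with the smallest p) and the 2 with the highest level of each pathway list, and the 3 genes most like Itgb2, Itgad and Cox6a2 by log2(CPM + 1) among those with a mean CPM of at least 5. Of the marker lists, summed levels are given, with called and defining genes and some with the highest levels. Sec24d and Sfpi1 were added after their values were seen, and 1 neighbouring gene is not reported here. DESeq2 1.42.0, the likelihood ratio test, other scalings and filters, and libraries left out were the 14 alternatives.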

Additional observations from a re-analysis of the deposited data

How the results depend on the processing

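No paired analysis was possible because the columns of the count table give the genotype and no replicate number. Each setting replaced 1 choice, but DESeq2 brings its own scaling and dispersion model along with its test, and the setting of 4 libraries leaves out 2 libraries at once.

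The number of genes changed, 71, was 473 with DESeq2, 255 with the likelihood ratio test, 25 with library size alone, 252 with no filter on low counts, and 5 to 154 with 1 library left out (lowest when WT c was left out, highest when XBP1-KO b was, and 13, 16, 38 and 40 for XBP1-KO a, XBP1-KO c, WT a and WT b). The split of calls into higher and lower was 25 and 46, and 23 and 27 with upper quartile factors and 13 and 12 with library size alone. That last scaling put the median log2 fold change of all genes at 0.14.

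Members called, 3, were 5 with DESeq2, which added Cox6a2 and Itgax. The call of Itgam ended with library size alone and when any single library other than XBP1-KO b was left out. Cox6a2 was also called with the likelihood ratio test and without WT a. No member changed sign: log2 fold changes ranged from -1.64 to -1.30 for Itgb2, -1.06 to -0.80 for Itgam, -0.42 to -0.12 for Itgal, 0.34 to 0.58 for Itgax, 3.09 to 3.63 for Itgad, 1.91 to 3.01 for Cox6a2, -0.45 to -0.28 for Fermt3 and -0.45 to -0.29 for Tln1. The log2 ratio of alpha chains to Itgb2 was 0.93, and 0.82 to 1.05 over its 8 alternatives.

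Genes called in the 5 lists of related genes and among the neighbours, cell type markers apart, were 5, and 13 with DESeq2, 9 with the likelihood ratio test, 3 with upper quartile factors, 3 with library size alone, 9 with no filter and 0 to 6 with 1 library left out.

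Near 0, signs turned. With upper quartile factors the log2 fold changes were 0.0084 for F11r, 0.049 for Sparc and 0.034 for Sfpi1, and with library size alone 0.041, 0.090 and 0.062. Sparc was at 0.0057 with a filter at CPM above 1 in 2 libraries and at 0.048 in the 4 libraries without XBP1-KO b and WT b, where 9130023H24Rik was at -0.12. With 1 library left out the ranges were -0.21 to 0.052 for F11r, -0.44 to 0.20 for Irf8, -0.41 to 0.17 for Sparc, -0.12 to 0.050 for Sfpi1, -0.38 to 0.18 for Flt3, -0.10 to 0.43 for Cox7a1, -0.11 to 0.21 for 9130023H24Rik, -0.18 to 0.94 for Tgfb1i1 and -0.18 to 0.24 for Sumo3. The cause was not tested. With 3 libraries a genotype, SE and p rest on few samples, and Itgad in WT rests on 11 to 21 counts a library.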

Other observations

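Itgb2l, a gene related to Itgb2 in sequence, had 27, 10 and 71 counts in XBP1-KO and 34, 4 and 0 counts in WT. The groups overlapped, the counts differed widely within each genotype, and Itgb2l was not called (log2 fold change 1.38, SE 1.17). Mast cell genes did not all move 1 way: Kit, the receptor for stem cell factor, had 63.5 ± 5.98 CPM in XBP1-KO and 101.9 ± 35.5 CPM in WT (SD, n = 3 each; -0.68, adjusted p = 0.210 with edgeR), while Cma1, Cpa3 and Tpsb2 rose. Gimap7, a GTPase of lymphocytes whose levels followed those of Itgad, had 15.4 ± 1.94 CPM in XBP1-KO and 5.48 ± 0.322 CPM in WT (1.49, adjusted p = 0.0124 with edgeR), and its adjusted p was 0.0958 without WT c. Mrc1, which followed Itgb2, had 330.1 ± 58.9 CPM in XBP1-KO and 559.8 ± 30.8 CPM in WT (-0.76, adjusted p = 0.0455 with edgeR), and its adjusted p was 0.0694 to 0.243 when any single library other than XBP1-KO b was left out. Gimap7 and Mrc1 were picked for their likeness to members that differed between the genotypes. A difference between the genotypes therefore follows in part from that choice, and their p-values are only a description.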
